A study of Oryctolagus cuniculus with 4 samples.

Results

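SAA3 and HP encode acute-phase proteins, and their transcripts were followed in the ligamentum flavum, the elastic ligament between neighbouring vertebral arches, of rabbits with a mechanically loaded lumbar level. The members are the probes whose annotated transcript is a RefSeq transcript of rabbit SAA3 or HP, which gave 2 genes with 3 probes of the 1489 genes that could be named and the 43603 probes on each array. SAA3 had 1 probe (NM_001082302) and HP had 2 probes (NM_001082110). The pair was chosen with its signals on these arrays known, so its own differences are given as descriptions and none is tested.

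The study compared 4 groups of male rabbits labelled as 34 weeks old, with 16 weeks as the labelled time. The surgery the labels describe was done at 18 weeks of age. The intervertebral stress concentration level, called the ISC level, was L3/4, where the overlying muscle had been resected and which lay between instrumented fusions, and it was set against an L3/4 control. The fused levels were L2/3 and L4/5, joined by posterolateral fusion with instrumentation, and were set against an L2/3 and L4/5 control. Each group was 1 sample on 1 single-colour array, so no value has an error over animals and no difference has a p-value. The labels give 1 treatment text for all 4 samples, and whether the controls were operated on, or RNA was pooled over animals or levels, is not given in the sources used here. Stress, muscle resection and surgery cannot be told apart at the ISC level, nor relief of movement and surgery at the fused levels.

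Serum amyloid A proteins are small apolipoproteins whose production rises during inflammation. The liver is the main source of the circulating forms, while SAA3 is made outside the liver, and in rabbit synovial fibroblasts a protein of this kind acts back on the cells that release it and raises their collagenase. Haptoglobin, the product of HP, binds haemoglobin released from red cells, and the complex is taken up by macrophages. It comes mainly from the liver, and in humans also from neutrophil granules and in mice from fat cells. Interleukin-1 and interleukin-6 induce acute-phase genes in liver cells, through NF-kappaB, C/EBP and STAT3.

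Across the arrays 59.6% to 67.9% of probes were well above background by the scanner software, the fewest in the L3/4 control. The 75th percentile of signal, to which every log2 level is relative, was 93.7 on the ISC array against 53.4 on that of the L3/4 control, and 85.4 on the fused array against 72.7 on that of its control. Of the ligament and tendon genes, COL1A2, DCN and LUM were well above background on all 4 arrays and TNMD on 3, not at the fused levels. In whole tissue, fewer cells of a type and less RNA per cell cannot be told apart. All 3 probes of SAA3 and HP were well above background on all 4 arrays, and none was saturated or marked as irregular.

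SAA3 was low on a single array, the L3/4 control, and close to equal on the other 3. Its processed signal was 269 at the ISC level against 13.1 in the L3/4 control, and 177 at the fused levels against 205 in the L2/3 and L4/5 control. Scaled to the array, its log2 level was 1.52 at the ISC level against −2.03 in the L3/4 control, and 1.05 at the fused levels against 1.49 in the L2/3 and L4/5 control. The stressed ligament and the control of the neighbouring levels thus had nearly the same SAA3 level, the highest of the 4, and the L3/4 control had the lowest.

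Against the L3/4 control, the ISC level was higher in SAA3 by 3.55 on the log2 scale, or 11.7-fold. The scanner software's own error estimate for that difference was 0.25, which covers the spots and not the animals. SAA3 ranked 1 from the highest of the 13729 features (genes or unnamed transcripts) that passed background in each sample, and 9.08% of those exceeded their control at least 2-fold. The size of 2-fold is used throughout as a fixed size and not as a test. The same ISC level set against the L2/3 and L4/5 control differed by 0.029, where 3.54% of features were 2-fold higher or more.

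At the fused levels SAA3 differed from the control of the same levels by −0.45, inside the spread of 0.50 (SD) found between 2 probes of 1 transcript over 1106 transcripts in that comparison. This spread, here and below, is of probes read on the same arrays and does not cover the animals. SAA3 at the fused levels exceeded the L3/4 control by 3.08, where 11.2% of features were 2-fold higher or more. The L3/4 control was below the L2/3 and L4/5 control by a difference of −3.52, and SAA3 ranked 39 from the lowest of 13137 features, 9.19% of them 2-fold lower or more. The control array of L3/4 thus sets the large differences. Over the 12741 features well above background on all 4 arrays, 427 (3.35%) had, like SAA3, an L3/4 control value at least 2-fold below each of the other arrays.

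The low SAA3 value lay near the bottom of the measurable range. In the L3/4 control the raw median pixel signal of the spot was 44 over a local background of 27.5, with an error estimate of 13.9% of the processed signal. On the other arrays raw signals were 285 over 29.5 at the ISC level, 201 over 32 at the fused levels and 225 over 27 in the L2/3 and L4/5 control, each with an error estimate of 10%. The level of −2.03 was above −3.15, the lowest level that any probe well above background had on that array. With normexp background correction, which adds a constant offset to dim and bright spots alike, SAA3 was at 1.75 for the ISC level and at −1.72 for the L3/4 control against the other control. SAA3 rests on 1 spot an array, so no second probe can be set beside it.

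**Figure D1:**
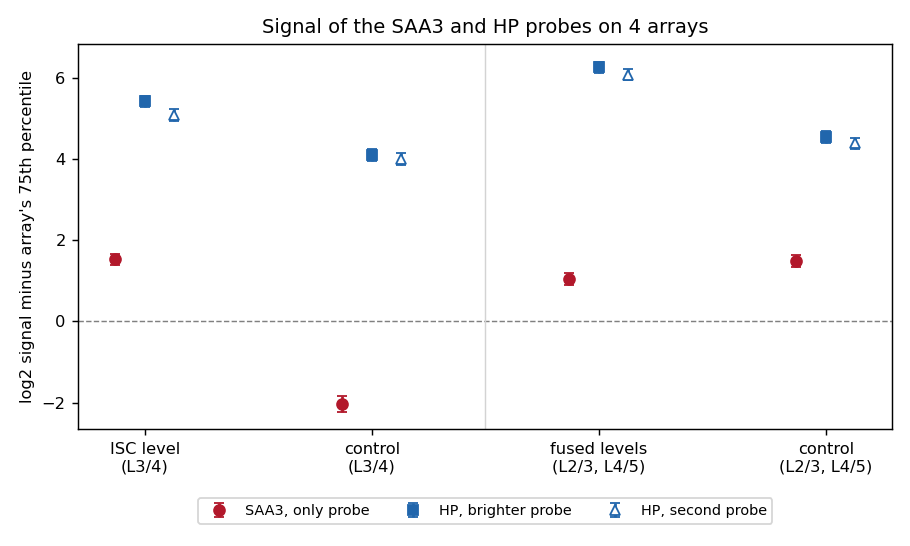
Log2 signal minus the array's 75th percentile (vertical axis) for the SAA3 probe and both HP probes on the 4 arrays, ISC level left of its control and fused levels left of theirs; bars are the scanner software's error estimate for the spot. SAA3 is at −2.03 in the L3/4 control and between 1.05 and 1.52 elsewhere, while both HP probes are higher on the operated arrays than on the control arrays.

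HP followed another order, with both operated ligaments above both controls. The brighter of its 2 probes had a processed signal of 3998 at the ISC level against 910.2 in the L3/4 control, and of 6512 at the fused levels against 1697 in the L2/3 and L4/5 control. Its scaled log2 level was 5.41 at the ISC level against 4.09 in the L3/4 control, and 6.25 at the fused levels against 4.55 in the L2/3 and L4/5 control. The fused levels were highest, the ISC level came next, and the controls did not overlap with either.

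HP was higher at the ISC level than in the L3/4 control by 1.32 on the log2 scale, or 2.50-fold, and higher at the fused levels than in their control by 1.71, or 3.27-fold. The second HP probe, a separate spot for the same transcript, had log2 levels of 5.08 at the ISC level against 4.00 in the L3/4 control, and of 6.08 at the fused levels against 4.38 in their control. Its differences were 1.08 and 1.70, and the probes' differences were apart by at most 0.24 over the 3 comparisons of matched and control arrays. The spread between 2 probes of 1 transcript was 0.65 (SD) for the ISC level and 0.50 for the fused levels. HP ranked 693 from the highest of 13729 features at the ISC level and 479 of 13717 at the fused levels, where 7.84% of features were at least 2-fold higher.

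Against the control of the other lumbar level HP kept its sign. The ISC level was above the L2/3 and L4/5 control by 0.87, under 2-fold, and by 0.70 for the second probe. The fused levels were above the L3/4 control by 2.16, and by 2.07 for the second probe. Of the 12741 features well above background on all 4 arrays, 1695 (13.3%) had both operated arrays above both control arrays, and 118 (0.926%) were at least 2-fold higher in both matched comparisons, as HP was. The L3/4 control differed from the L2/3 and L4/5 control by −0.45 for HP, less than the spread of 0.67 between probes in that comparison.

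In the order of HP levels the fused levels exceeded the ISC level by 0.84, more than the spread of 0.46 between probes for those arrays, and the ISC level exceeded the L2/3 and L4/5 control by 0.87 beside a spread of 0.44. The spread between probes leaves out differences between animals, so whether this order holds over animals is not known. The controls were neighbours that lay closer than their spread. In the order of SAA3 levels the ISC level, the L2/3 and L4/5 control and the fused levels lay within 0.47 of each other, and a gap of 3.08 separated them from the L3/4 control. The difference at L3/4 exceeded the difference at L2/3 and L4/5 by 4.00 for SAA3, while for HP it was smaller, at −0.38. Neither of these was tested.

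**Figure D2:**
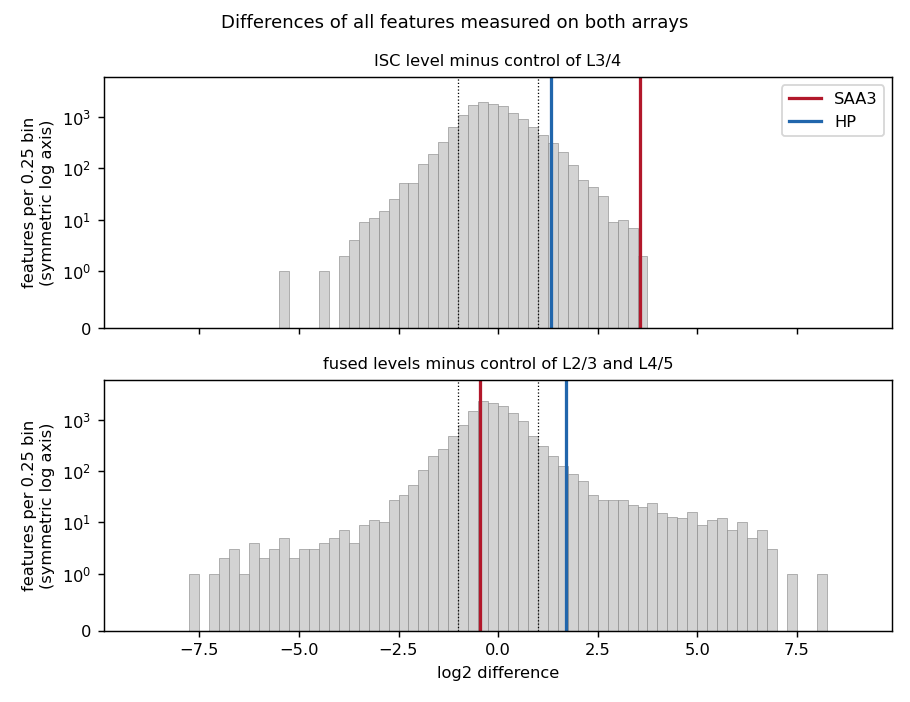
Number of features per bin of log2 difference (horizontal axis; the vertical axis is a symmetric log scale) for the ISC level minus the L3/4 control, above, and the fused levels minus their control, below; dotted lines mark 2-fold. SAA3 stands at the upper end at 3.55 above and inside the bulk at −0.45 below, and HP lies on the upper slope at 1.32 and 1.71.

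Other acute-phase proteins gave mixed values at the ISC level. Of 34 acute-phase symbols listed, 13 genes could be named on the array, and all 13 were well above background on at least 1 array. Besides SAA3 and HP, 7 were measured on both arrays at L3/4, with 0 higher by 2-fold or more and 2 lower, beside 9.08% and 10.5% of all features. HPX, VTN (vitronectin) and ITIH3, an inter-alpha-trypsin inhibitor chain, were well above background at the ISC level and not in the L3/4 control, with no bound above 1. The 7 genes' median difference was −0.34, beside −0.17 over all features. Both lower genes are products of the liver. ALB, serum albumin, had a level of −3.41 at the ISC level against −1.26 in the L3/4 control, a difference of −2.14, and was not well above background on the other arrays. LBP, which binds bacterial lipopolysaccharide and hands it to CD14, had −3.66 against −2.18, a difference of −1.48. With normexp ALB was at −0.53 and LBP at −0.28, both under 2-fold.

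Another serum amyloid A gene could be named. The gene that RefSeq lists as LOC100009168 with the synonyms SAA1 and SAA2, which lies 3 genes from SAA3 in gene order, had a level of −1.91 at the ISC level against −1.77 in the L3/4 control, and of −1.99 at the fused levels against −1.31 in their control. Its differences were −0.13, inside the spread between probes of 0.65, and −0.68, beyond the spread of 0.50, and −0.13 with normexp at the fused levels. Members of this family resemble each other in sequence, the files used here hold no probe sequences, and how far the SAA3 probe takes up related transcripts was not tested. CRP, C-reactive protein, differed by −0.34 at the ISC level and −0.14 at the fused levels, and ITIH4, an inter-alpha-trypsin inhibitor chain, by −0.39 and −0.12.

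At the fused levels 6 acute-phase genes besides SAA3 and HP were measured, with 1 at least 2-fold higher and 0 lower, beside 7.84% and 9.15% of all features, and a median of −0.04 beside −0.14 over all features. CD14, the lipopolysaccharide receptor of monocytes and macrophages, had levels of 1.05 at the fused levels against −0.02 in their control, a difference of 1.06 that was 0.67 with normexp. At the ISC level CD14 had 0.20 against −0.51 in the L3/4 control, a difference of 0.71. TF, transferrin, was higher by 0.82 at the fused levels and differed by −0.22 at the ISC level, with a sign that turned under normexp. LBP was not well above background in the L2/3 and L4/5 control and at least 1.91-fold higher at the fused levels. ORM1, orosomucoid, named here after its value was seen, exceeded background on the fused array alone, at least 1.82-fold higher than in its control.

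The cytokines that induce acute-phase genes were mostly dim. Of 32 symbols of cytokines, receptors and factors, 7 could be named, and IL6 and TNF were not well above background on any array. At the ISC level 0 of 5 measured were higher by 2-fold or more and 2 were lower, beside 9.08% and 10.5% of all features. The lower ones were LIF, a cytokine of the interleukin-6 family, at −1.77 and IL1A, an interleukin-1 ligand, at −1.49. IL1RN, the interleukin-1 receptor antagonist, was at −0.72 there, IL1B, the main secreted interleukin-1, at −0.38 and NR3C1, the glucocorticoid receptor, at −0.19. The list had a median of −0.72, and with normexp its median was −0.18 and none was 2-fold apart.

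At the fused levels IL1B had a level of 1.23 against −5.18 in their control, where it was not well above background, which makes it at least 21.8-fold higher. IL1RN had 1.97 at the fused levels against −0.82 in their control, a difference of 2.79 with its other measured probe at 2.94. LIF differed by −0.17 and NR3C1 by 0.07. Of the 3 members measured on both arrays, 1 was at least 2-fold higher and 0 lower, beside 7.84% and 9.15% of all features. The part of these cytokines in the HP and SAA3 levels was not tested. Against the L3/4 control, where IL1B was well above background, the fused levels were higher by 3.75 for IL1B and 1.97 for IL1RN.

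Receptors and targets of serum amyloid A were next. Of 21 symbols 14 could be named, and 10 were measured at L3/4, with 5 higher by 2-fold or more and 0 lower at the ISC level, beside 9.08% and 10.5% of all features. Their median was 0.76, beside −0.17 over all features. The count of 5 was 1 with normexp, where the median was 0.49. The list was chosen with earlier results of these data known, so its counts are descriptions and no test. MMP13, a collagenase, had a level of −0.43 at the ISC level against −2.69 in the L3/4 control, a difference of 2.25. TLR2, a pattern receptor that serum amyloid A can engage, had −0.57 against −2.17, a difference of 1.60. CCL2, a monocyte chemoattractant, had −0.24 against −1.78, a difference of 1.54, with its other measured probe at 1.88. PTGS2, cyclooxygenase-2, was at 1.31 with a second probe at −0.38, and TIMP1, a metalloprotease inhibitor, at 1.05, both named after their values were seen. TIMP1 alone stayed at 2-fold with normexp, at 1.06. The lowest were SCARB1, a lipoprotein receptor, at −0.52, MMP1, the interstitial collagenase, at −0.46 and MMP3, stromelysin, at −0.44.

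As with SAA3, 4 of these genes were lower in the L3/4 control than in the other control, and PTGS2 was not. In the L3/4 control against the L2/3 and L4/5 control MMP13 was at −1.80, TLR2 at −1.24, CCL2 at −1.16 and TIMP1 at −1.01, and 4 of the 9 members measured in that comparison were 2-fold lower or more, beside 9.19% of all features. With normexp each of the 4 was under 2-fold, MMP13 at −0.55, TLR2 and CCL2 at −0.38 and TIMP1 at −0.985. Against the L2/3 and L4/5 control the ISC level differed by 0.45 for MMP13, 0.36 for TLR2, 0.37 for CCL2 and 0.034 for TIMP1. PTGS2 was higher by 1.78 at the ISC level than in the L2/3 and L4/5 control, with its second probe at 0.39. The L3/4 control exceeded the other control in PTGS2 by 0.47, with the second probe at 0.77. MMP9, a gelatinase named after its value was seen, was not well above background in either control and at the ISC level at least 2.22-fold above the L3/4 control and 2.32-fold above the other. TLR4, the lipopolysaccharide receptor, named after its value was seen, was not well above background in the L3/4 control and at the ISC level at least 2.70-fold higher. Against the L2/3 and L4/5 control, TLR4 at the ISC level differed by −0.035, and the L3/4 control was at least 2.76-fold lower than that control.

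At the fused levels 3 of 10 measured members of this list were at least 2-fold higher and 1 lower, beside 7.84% and 9.15% of all features. Their median was 0.52 beside −0.14 over all features. PTGS2 had a level of −0.08 at the fused levels against −2.52 in their control, a difference of 2.44 with a second probe at 0.14. CXCL8, a neutrophil chemoattractant, was higher by 1.05, with 5 probes from 0.79 to 1.79, and SCARB1 by 1.003, the highest of 5 probes down to 0.31. TIMP1 was at −1.26, CCL2 at −0.9999, the nearest to 0 of 4 probes down to −1.59, and MMP2, a gelatinase, at −0.70. With normexp 0 were at least 2-fold higher, PTGS2 being at 0.90, CXCL8 at 0.53 and SCARB1 at 0.20.

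HP binds haemoglobin, so the haemoglobin genes are given beside it. HBA, the alpha chain, had a level of 7.76 at the ISC level against 8.65 in the L3/4 control, and of 9.17 at the fused levels against 7.07 in their control. HBB2, a beta chain, had 7.76 against 8.56, and 9.17 against 7.11. HBA differed by −0.89 at the ISC level and 2.10 at the fused levels, and HBB2 by −0.80 and 2.06. With normexp the ISC differences were −0.47 for HBA and −0.36 for HBB2. The part of blood in the HP differences was not tested. FTL, the light chain of the iron store ferritin, differed by 0.03 and 0.71. HPX, hemopexin, which binds free haem, was well above background at the ISC level and on no other array. HMOX2, a haem oxygenase, was well above background at the ISC level and the fused levels, at least 1.66-fold higher at the fused levels than in their control.

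**Figure D3:**
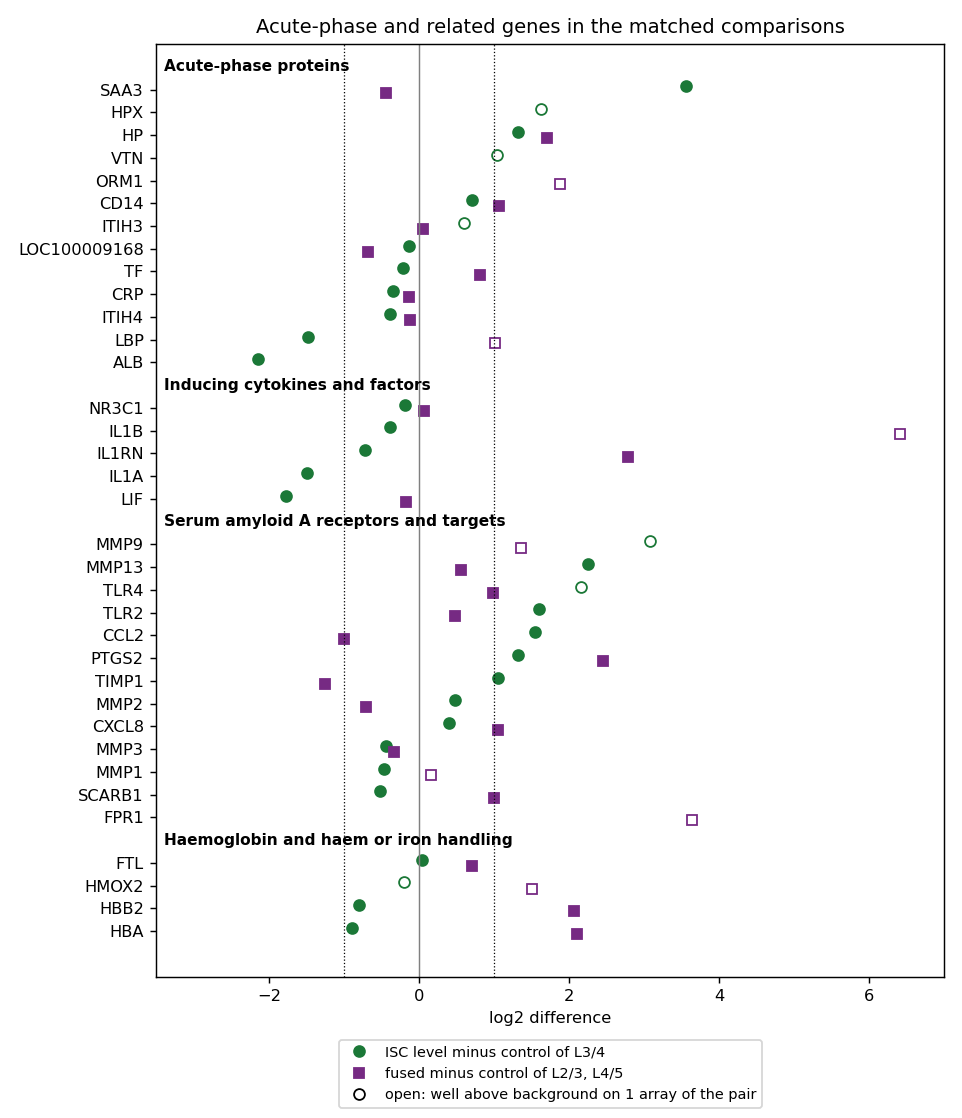
Log2 difference (horizontal axis) of acute-phase, cytokine, receptor and haemoglobin genes for the ISC level minus the L3/4 control (circles) and the fused levels minus their control (squares); dotted lines mark 2-fold, and open symbols mark genes well above background on 1 array of the pair, whose position depends on noise. SAA3 is the only filled acute-phase circle beyond HP, which lies right of 1 in both comparisons.

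Markers of cells that can make HP or SAA3 moved with the arrays in different ways. Of 14 neutrophil and marrow symbols 6 could be named, and their summed signal, each array's 75th percentile being 1, was 7.90 at the ISC level against 13.9 in the L3/4 control, and 315.7 at the fused levels against 6.20 in their control. All 6 were at least 2-fold higher at the fused levels, as 7.84% of all features were, with a median of 5.10, and their median at the ISC level was −0.86. CAMP, a cathelicidin precursor of neutrophil granules, differed by −0.76 at the ISC level and 6.14 at the fused levels, and S100A9, a calprotectin subunit, by −1.13 and 5.34. MCP2, the brightest of the 6, makes up most of the sums. At the ISC level 1 of the 6 was at least 2-fold lower and 0 higher, beside 10.5% and 9.08% of all features. The part of neutrophils in the HP differences of either comparison was not tested.

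Of 9 adipocyte symbols 4 could be named, with a summed signal of 7.83 at the ISC level against 4.97 in the L3/4 control, and of 20.0 at the fused levels against 6.07 in their control. ADIPOQ, adiponectin, had levels of 2.49 against 1.55, and of 3.48 against 2.15, so it was higher by 0.94 and 1.32. LPL, lipoprotein lipase, was higher by 2.43 and 2.55, LEP, leptin, differed by 0.04 and 1.24, and PPARG, the adipocyte nuclear receptor, by −2.00 and 2.63. At the ISC level 1 of the 4 was at least 2-fold higher and 1 lower, beside 9.08% and 10.5% of all features. All 4 were at least 2-fold higher at the fused levels, as 7.84% of all features were. ADIPOQ, the brightest of them, makes up most of the sums. The sums and CD14, the 1 named gene of 8 macrophage symbols, were higher in both comparisons. The part of fat cells and macrophages in the HP differences was not tested. Of 10 hepatocyte symbols 3 could be named. APOA1 was not well above background on any array and ALB was not on either array of the fused comparison. CRP was well above background on all 4 arrays, at −1.91 at the ISC level against −1.57 in the L3/4 control, and at −2.17 at the fused levels against −2.03 in their control. The part of liver transcripts in the HP differences was not tested.

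For SAA3 the summed signal of the 4 named ligament and tendon genes of 11 was 476 at the ISC level against 285 in the L3/4 control, and 254 at the fused levels against 394 in their control. COL1A2, the brightest of them, makes up most of these sums. At the ISC level COL1A2 differed by 0.89, whereas DCN was at −0.23, LUM at −0.57 and TNMD at −0.09. At the fused levels COL1A2 was at −0.62, DCN at 0.07 and LUM at −1.36. The 11 named skeletal muscle genes of 12 summed to 22.5 at the ISC level against 20.9 in the L3/4 control, and to 11.7 at the fused levels against 775 in their control. The part of these tissues in the SAA3 and HP differences was not tested.

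The genes whose pattern was most like each member were looked for among 885 named genes well above background on all 4 arrays, by the distance between log2 profiles centred over the 4 arrays. Nearest to SAA3 was BRK1, a subunit of the complex that drives actin branching, at a distance of 0.92, beside a median of 3.15 over the 885 genes. It was followed by VLDLR, a lipoprotein receptor, at 1.09, CAMK2D, a calcium-dependent kinase, at 1.10, CHD2, a chromatin remodeller, at 1.12 and MMP13 at 1.29. All 5 were lowest in the L3/4 control, at −3.47 to −1.80 against the L2/3 and L4/5 control. BRK1 had 4 probes measured at L3/4, with differences from 2.63 to 3.21 at the ISC level, and VLDLR and CAMK2D had 3 probes each, from 1.83 to 2.25 and from 2.06 to 2.79. CHD2 has 1 probe, as SAA3 does, and MMP13 has 3 probes, of which 1 was measured on both arrays at L3/4. With normexp the ISC differences of BRK1, VLDLR, CAMK2D, CHD2 and MMP13 were 1.05, 1.26, 0.87, 1.70 and 0.83.

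Nearest to HP was TACR2, a tachykinin receptor, at a distance of 0.31, beside a median of 1.93. Among the next nearest were CCNA2, cyclin A2 of dividing cells, at 0.35, PHKA2, a phosphorylase kinase subunit, at 0.39 and ADIPOQ at 0.41. These 4 were higher at the ISC level, by 0.92 to 1.25, and at the fused levels, by 1.23 to 1.88, while the controls differed by −0.60 to 0.07. With normexp TACR2 and PHKA2 were at 0.26 and 0.33 at the ISC level. HP ranked 82 among the genes nearest to SAA3, at a distance of 2.36, and SAA3 ranked 704 among those nearest to HP. With 4 arrays many genes must share any given pattern.

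**Figure D4:**
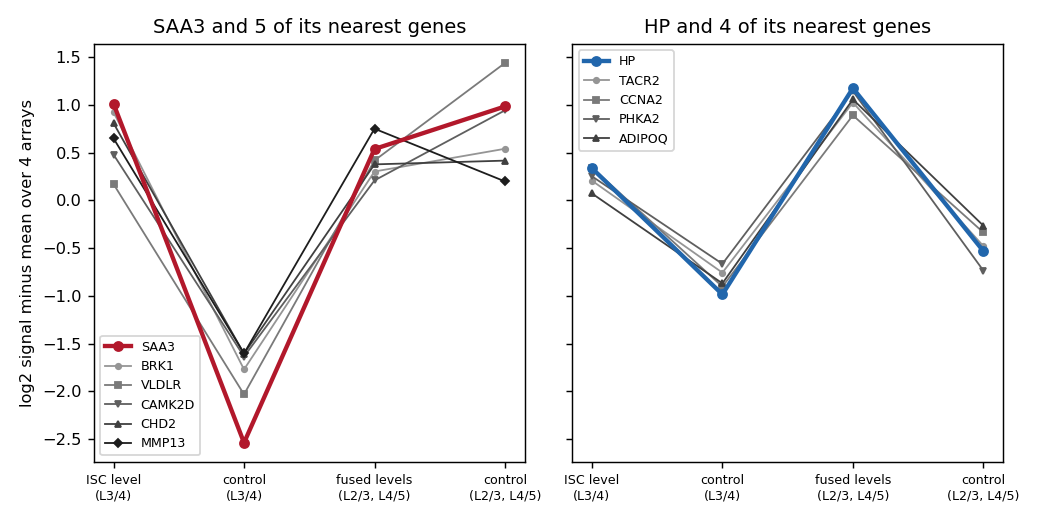
Log2 signal minus its mean over the 4 arrays (vertical axis) for SAA3 with its 5 nearest named genes, left, and HP with 4 of its nearest, right; lines only join the values of a gene. The SAA3 group drops in the L3/4 control alone, while the HP group peaks at the fused levels with the ISC level next.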

How the data were processed

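Total RNA of 4 ligament samples was labelled with Cy3 and hybridised to 1 Agilent array each, all on 1 slide. The submitters' processing notes name Feature Extraction 12.0.3 as the source of the deposited scanner intensities. The processed signal is background-subtracted and detrended within an array and not scaled between arrays, per the file headers, which also give other marks per spot (well above background, saturated, non-uniform). The authors' deposited value table holds intensities equal to the processed signal times 1 factor per array, so scale and direction are known and the choice of factor is not. Column medians were 515.5 (ISC) against 442.3 (its control) and 498.4 (fused) against 504.0 (its control). It served only as an alternative.

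Processed signals were put on the log2 scale and centred on the 75th percentile of an array's non-control probes. Irregular spots (3 to 7 per array) were left out and spots of 1 probe averaged. The median log2 SD over repeated spots was 0.118 to 0.153 (45 to 48 probes with 5 or more spots). Accessions were named through a RefSeq table of assembly mOryCun1.1, whose coordinates are not given because the array design names another build. This named 3792 probes of 1489 genes. A gene is represented by its brightest probe. For a bound, the dim value was set at that array's lowest signal among probes well above background, or at the probe's own where higher. Comparisons are differences with no test, and the arithmetic was tested on simulated data. Precision is limited by the number of arrays. Alternatives were quantile normalization, cyclic loess, a median centring, normexp (offset 50) on median signals, the authors' scaling, the mean over probes, no filter and the other controls, with limma 3.58.1. Values given as normexp had quantile normalization after the background correction. A value counted as unmoved within 1 SD of the difference between 2 probes of 1 transcript. Named are listed genes well above background on an array, for lists over 12 the 3 highest and lowest, and the 5 nearest genes, of which 1 is not reported here. The members and lists were chosen with earlier results of these data known. No promoter, protein or probe sequences were used here.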

Additional observations from a re-analysis of the deposited data

Results flagged for a closer look

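SAA3 differed from its control by 3.55 on the log2 scale at the ISC level and by −0.45 at the fused levels, opposite signs that are 4.00 apart. The value of −0.45 lies inside the spread of 0.50 (SD) between 2 probes of 1 transcript, so its sign is not settled. Each difference is 1 array against 1 array, and the gap between them was not tested. With the control arrays exchanged the differences were 0.029 at the ISC level and 3.08 at the fused levels.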

How the results depend on the processing

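Of 50 alternative differences of SAA3 and HP, 44 moved by less than the spread between 2 probes of 1 transcript. The other 6 moved by more, all of SAA3. Some of the 44 could not move and say nothing on stability. Leaving out the filter on dim probes kept every value as it was. The mean over probes is the reported value for SAA3, which has 1 probe. With normexp, SAA3 was at 1.75 for the ISC level against the L3/4 control and at −1.72 for the L3/4 control against the L2/3 and L4/5 control. Normexp, here followed by quantile normalization, adds an offset that compresses dim spots, and the SAA3 spot was dim in the L3/4 control. Against the other control array SAA3 was at 0.029 for the ISC level and 3.08 for the fused levels, and against the mean of both controls at 1.79 and 1.32. HP ranged from 1.31 to 1.69 at the ISC level and from 1.66 to 1.74 at the fused levels over 5 scalings, and only against the L2/3 and L4/5 control, at 0.87, was its ISC difference under 2-fold. The authors' scaling moved the median of all features at the ISC level by 0.12, with 11.2% of features then at least 2-fold higher and 7.82% lower. Under normexp features shifted there by a median of 0.12. It gave 318 higher and 182 lower (2.32% and 1.33%), beside 1247 and 1440 in the values reported. With normexp 421 were higher and 274 lower at the fused levels, beside 1075 and 1255, and 299 lower in the L3/4 control against the other control, beside 1207. No paired analysis was possible because each group is 1 sample.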
